A study of Homo sapiens with 4 samples.

Results

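The genes described here are 35 genes that carry glucose from the cell surface to the mitochondrial gate, out of 40205 gene symbols counted. They were taken by name and by step of the pathway: glucose uptake, the enzymes of glycolysis and their bifunctional regulators, lactate production and export, the pyruvate dehydrogenase kinases, and the entry and oxidation of pyruvate. All 35 were present in the table and all 35 passed the filter on low counts, so no member was lost to it. The study sequenced total RNA from A549 cells, a line established from a human lung adenocarcinoma, at 24 h after siRNA (small interfering RNA, which directs the cleavage of a matching transcript) was transfected. The control libraries, control 1 and control 2, received negative control siRNA. The other two received siRNA to the long non-coding RNA SBF2-AS1 and are called Knockdown-670 and Knockdown-732 as in the labels, which do not give the meaning of the numbers. All 4 libraries share the cell line, the transfection reagent, the serum-supplemented medium and the time point, and no untransfected cells were compared. Whether libraries of a group represent separate cultures is not stated in the labels. The p-values therefore reflect only how far these libraries differed from each other, which may be technical.

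Glycolysis turns glucose into pyruvate in the cytosol, with an early phase that spends ATP and a later phase that pays it back. Facilitative transporters bring glucose in, hexokinase traps it by phosphorylation, and phosphofructokinase commits it. Pyruvate is then either reduced to lactate and exported or carried into mitochondria and oxidised by the pyruvate dehydrogenase complex, which is switched off by its kinases. Many of these genes are known targets of the hypoxia-inducible transcription factors and of MYC, and lung adenocarcinoma cells are known for high glucose uptake.

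The libraries held 12149767 to 12938143 counts over 22025 to 22419 symbols with a count. SBF2-AS1, the target, had 57 and 79 counts in control 1 and control 2, and 15 and 18 in Knockdown-670 and Knockdown-732, so both knockdown libraries lay below both controls. Levels are given as CPM, counts scaled to a common library size after TMM normalization, and library values are listed as control 1 and control 2 against Knockdown-670 and Knockdown-732. Changes are log2 fold changes of knockdown over control with their standard error (SE). A gene is called higher or lower where edgeR's quasi-likelihood test gave an adjusted p under 0.05 over all 16120 genes tested. The share of counts in 15 mitochondrially encoded genes was 11.0% and 11.1% in the controls, and it was 9.36% and 9.32% after knockdown. The summed level of 8 markers of A549 epithelium went from 11410 and 10700 CPM to 5834 and 6024 CPM, scaled by library size (5 lower, 1 higher, 2 not called). Of the 8 markers ALDH1A1 had the most counts, 73205 and 65857 in the controls and 29125 and 33990 after knockdown. The mitochondrial share and the marker sum fell while most called members of the pathway rose. Their part in the pathway's changes was not tested. In RNA from a whole culture, fewer cells with a transcript and less of that transcript per cell cannot be told apart.

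Genes for glucose uptake and for the steps down to pyruvate kinase were mostly higher after siRNA to SBF2-AS1, while genes for the entry and oxidation of pyruvate were flat or lower. Of the 35 genes, 19 were higher, 5 were lower and 11 were not called. Among all tested genes, 23.5% were called higher and 22.8% lower. The members' median log2 fold change was 0.27, against -0.0024 over all tested genes, and single members ranged from -1.28 for PDK4 to 1.75 for HK2. At least a 2-fold rise was seen for 6 genes (HK2, ALDOC, ENO2, PFKFB4, SLC2A3 and SLC2A1) and at least a 2-fold fall for 2 (PDK4 and PDHB). How many of all tested genes changed by that much was not counted. In 23 genes both knockdown libraries lay above both controls, in 10 both lay below, and in 2 (ENO1 and ENO3) the groups overlapped. Over all tested genes these shares were 36.4% above and 36.2% below. Taken by arm, 16 of the 22 genes from uptake to pyruvate kinase were higher, 1 was lower and 5 were not called, with a median of 0.70. Of the 4 lactate genes 2 were higher and 2 were not called (median 0.07). The 4 pyruvate dehydrogenase kinases held 1 higher, 1 lower and 2 not called (median 0.003). Of the 5 genes for pyruvate entry and oxidation none was higher, 3 were lower and 2 were not called (median -0.38). Together the 35 genes made up 2.29% and 2.23% of all counts in control 1 and control 2, and 2.79% and 2.77% in Knockdown-670 and Knockdown-732.

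**Figure D1:**
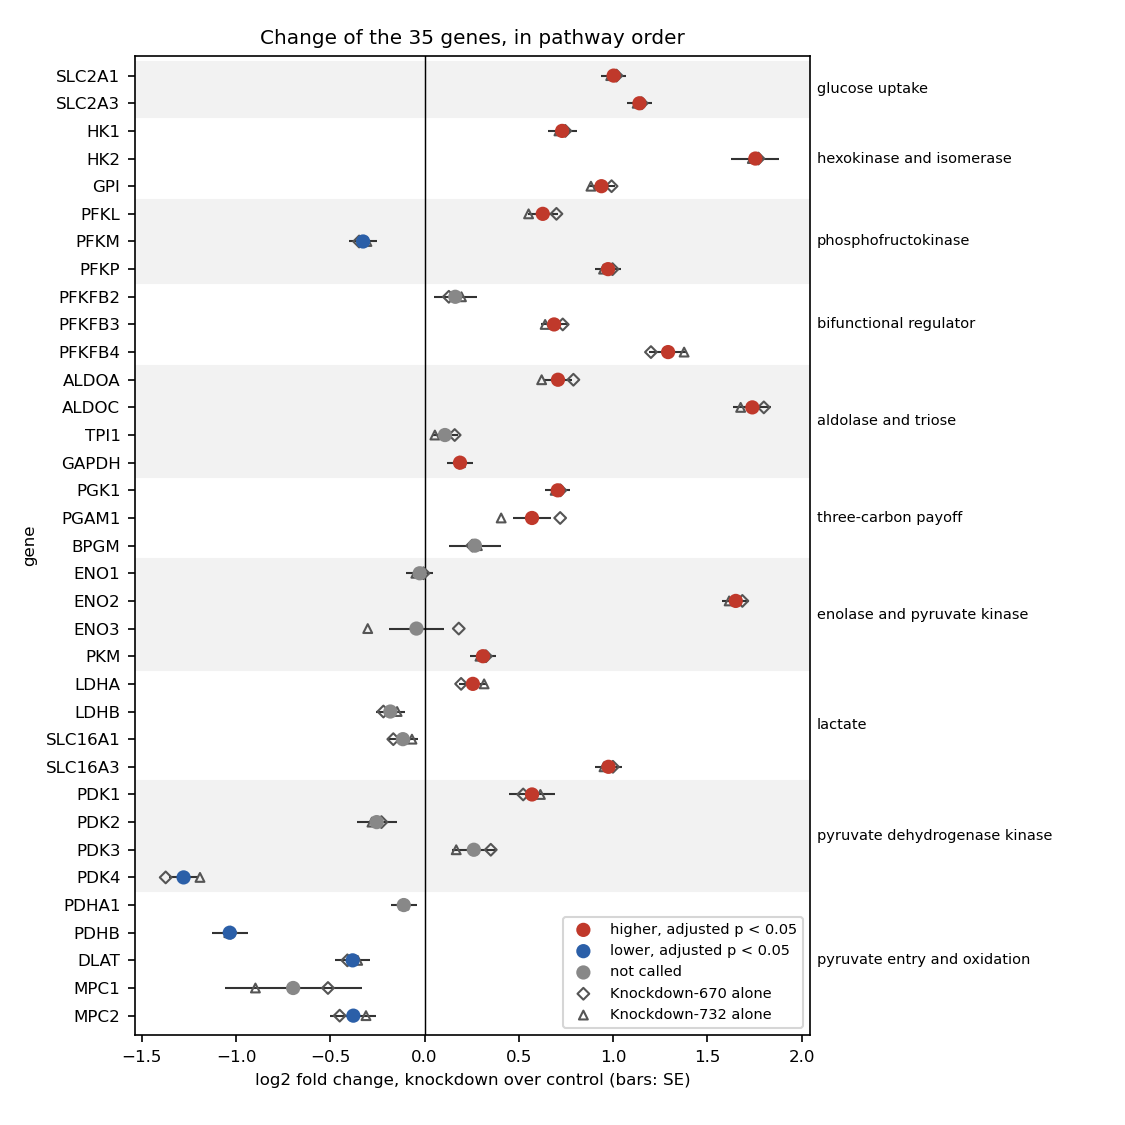
Log2 fold change (knockdown over control, x axis) of each of the 35 genes (y axis, in pathway order); filled circles are the comparison of both groups with bars for 1 SE, coloured by call at an adjusted p of 0.05, and open symbols are the single knockdown libraries against both controls. From SLC2A1 down to PGAM1 the points are red except PFKM (blue at -0.33) and PFKFB2 and TPI1 (grey), with HK2 the farthest right at 1.75, and the lowest points are PDK4 at -1.28 and PDHB at -1.03.

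Some of the calls were small. When the test asked for a change beyond 1.2-fold, 16 members stayed higher and 2 stayed lower. Calls over all genes were not counted under that test. The calls that ended under that test were GAPDH, PKM and LDHA among the higher genes and PFKM, DLAT and MPC2 among the lower. Adjusting for the GC content and length of transcripts also ended the calls of GAPDH, PKM and MPC2, and it called BPGM and PDK3 higher and PDK2 lower. Calls that hung on a single library are named with the gene.

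Promoter sequences are shown for 6 members chosen to span the responses: ENO2, ALDOC and PGK1, which rose; ENO1, which was not called; LDHA, whose rise was small; and PDHB, which fell. Each line gives the 250 bases before the gene's first listed start, 5′ to 3′ on the gene's strand, from RefSeq on GRCh38.p14, which is not the build the submitters name. Capitals mark ACGTG, the core of the hypoxia response element, and GCGTG, its variant, on either strand, so that CACGT and CACGC also appear in capitals. CACGTG, the E-box that MYC and MAX bind, reads ACGTG on both strands and counts as 2 matches.
ENO2, chr12:6914330-6914579, strand +: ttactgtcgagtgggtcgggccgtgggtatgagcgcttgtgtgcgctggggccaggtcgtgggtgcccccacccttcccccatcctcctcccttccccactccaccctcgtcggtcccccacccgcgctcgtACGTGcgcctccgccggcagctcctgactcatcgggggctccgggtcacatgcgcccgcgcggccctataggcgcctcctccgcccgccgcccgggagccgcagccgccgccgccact
ENO1, chr1:8878687-8878936, strand -: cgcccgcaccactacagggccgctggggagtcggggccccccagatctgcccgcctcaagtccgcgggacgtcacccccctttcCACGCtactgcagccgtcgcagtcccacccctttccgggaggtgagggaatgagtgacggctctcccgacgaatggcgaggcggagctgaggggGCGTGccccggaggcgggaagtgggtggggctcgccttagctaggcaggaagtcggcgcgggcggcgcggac
ALDOC, chr17:28576896-28577145, strand -: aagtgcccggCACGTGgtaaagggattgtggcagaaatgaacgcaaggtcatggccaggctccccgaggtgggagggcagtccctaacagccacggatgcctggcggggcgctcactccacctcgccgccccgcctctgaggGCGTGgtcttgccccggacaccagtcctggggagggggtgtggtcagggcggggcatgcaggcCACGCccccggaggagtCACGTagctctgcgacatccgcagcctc
PGK1, chrX:78103998-78104247, strand +: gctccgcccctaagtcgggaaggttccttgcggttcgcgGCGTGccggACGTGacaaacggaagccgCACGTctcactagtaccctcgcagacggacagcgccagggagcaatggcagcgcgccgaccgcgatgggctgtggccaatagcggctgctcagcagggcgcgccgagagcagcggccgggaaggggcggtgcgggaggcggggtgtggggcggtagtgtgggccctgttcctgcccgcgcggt
LDHA, chr11:18394313-18394562, strand +: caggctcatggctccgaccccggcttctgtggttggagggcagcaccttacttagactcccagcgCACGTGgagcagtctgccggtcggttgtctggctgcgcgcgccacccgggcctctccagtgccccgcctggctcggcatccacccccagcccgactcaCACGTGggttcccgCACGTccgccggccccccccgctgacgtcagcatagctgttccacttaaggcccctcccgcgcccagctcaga
PDHB, chr3:58433833-58434082, strand -: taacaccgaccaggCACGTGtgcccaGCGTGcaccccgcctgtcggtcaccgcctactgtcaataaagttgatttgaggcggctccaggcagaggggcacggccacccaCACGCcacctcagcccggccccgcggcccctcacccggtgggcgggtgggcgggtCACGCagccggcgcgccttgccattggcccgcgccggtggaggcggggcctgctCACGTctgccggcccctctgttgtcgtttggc

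ENO2 holds 1 match to ACGTG in these 250 bases, 118 bases before the start, whereas ENO1 holds no ACGTG and 2 GCGTG. ALDOC and PDHB each hold 3 ACGTG matches, a CACGTG far from the start and 1 match close to it, although ALDOC rose and PDHB fell. LDHA holds 5, in 2 CACGTG and 1 further match, between 185 and 73 bases before the start. PGK1 holds 2, at 202 and 183 bases, and 1 more just after its start. RefSeq promoters from 250 bases before to 50 after each listed start were found for 32 of the 35 members (not SLC2A3, PFKFB2 and SLC16A1), some with several starts. At least 1 ACGTG, counted on both strands and including any inside CACGTG, was present in 19 of 32 members (59.4%) and in 32.2% of the 10176 tested genes with a promoter. Members had 1.97 listed windows per gene against 1.46 over all tested genes, and per window the shares were 36.5% of 63 and 25.1% of 14901. The median GC content of the windows was 68.7% for members and 64.7% for all. By call, ACGTG was present in 12 of 18 higher, 3 of 5 lower and 4 of 9 members not called, and over all tested genes in 33.6% of the higher, 32.6% of the lower and 31.3% of those not called. The variant GCGTG was present in 23 of 32 members (71.9%) and 58.3% of all, CACGTG in 8 of 32 (25%) and 12.5%, the GC box GGGCGG in 29 of 32 (90.6%) and 76.5%, and CANNTG, which includes CACGTG, in 23 of 32 (71.9%) and 67.2%. These matches describe letters in a window and were not tested as binding sites.

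Transcripts of both glucose transporters were higher. The values here are transcript levels only and do not give glucose uptake, enzyme activity or flux. SLC2A1, which encodes GLUT1, the main transporter of basal glucose uptake, gave 244.5 and 258 CPM in the controls and 508.5 and 498 CPM in Knockdown-670 and Knockdown-732. Its log2 fold change was 1.003 (SE 0.07, adjusted p = 9.89e-10 in edgeR). SLC2A3, which encodes the high-affinity transporter GLUT3, gave 184 and 196 CPM in the controls and 422.5 and 416 CPM in the knockdown libraries, a change of 1.14 (SE 0.07, adjusted p = 2.12e-10 in edgeR). For both genes the knockdown libraries stood well apart from the controls and close to each other. SLC2A14, a near-identical copy of SLC2A3, had 33, 45, 98 and 93 counts in control 1, control 2, Knockdown-670 and Knockdown-732, so reads shared with SLC2A3 may have been split between them.

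At the trapping of glucose HK1, HK2 and the isomerase GPI were higher, while a further hexokinase was not called. HK1, the widely expressed hexokinase, gave 101 and 116 CPM in the controls and 181.5 and 177 CPM in the knockdown libraries. Its log2 fold change was 0.73 (SE 0.08, adjusted p = 3.62e-07 in edgeR). HK2, the hexokinase typical of insulin-sensitive tissue and many tumours, gave 12.8 and 17.5 CPM against 51.9 and 50.7 CPM, with a change of 1.75 (SE 0.13, adjusted p = 3.79e-09 in edgeR). This was the highest fitted change of the 35 genes, within its SE of that of ALDOC. The controls differed from each other for HK2 by more than the knockdown libraries did, but the groups were far apart. The pseudogene HK2P1 rose in parallel from 18 and 20 counts to 92 and 71 counts, and how reads were shared between the pair is not known from the labels. HKDC1, a hexokinase that is not among the 35 genes and is named after its values were seen, had more counts than HK1 in every library: 2540 and 2827 against 2515 and 2758. Its groups overlapped and it was not called, at 0.07 (SE 0.07, adjusted p = 0.425 in edgeR). GPI, the isomerase that turns glucose phosphate into fructose phosphate, was abundant at 1373 and 1420 CPM in the controls and 2778 and 2575 CPM in the knockdown libraries. Its change was 0.94 (SE 0.07, adjusted p = 4.52e-09 in edgeR), with no overlap between groups.

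Transcripts for the commitment step changed unevenly. PFKP, the platelet-type phosphofructokinase and the form with most counts per length here, gave 715 and 661 CPM in the controls and 1372 and 1328 CPM in the knockdown libraries, a log2 fold change of 0.97 (SE 0.07, adjusted p = 2.38e-09 in edgeR). PFKL, the liver-type form, gave 85.0 and 75.9 CPM against 131 and 118 CPM, a change of 0.63 (SE 0.08, adjusted p = 4.56e-06 in edgeR). PFKM, the muscle-type form, was the only one of the 22 genes from uptake to pyruvate kinase to be called lower, from 88.45 and 92.0 CPM to 70.9 and 73.0 CPM. That fall was -0.33 (SE 0.08, adjusted p = 0.00172 in edgeR); the groups did not overlap, and the call held in each of 11 alternative settings other than the 1.2-fold test. PFKM shares 628 exon bases (8.58% of its exon bases) with SENP1 on the opposite strand, a SUMO protease whose counts were 477, 473, 181 and 179 in control 1, control 2, Knockdown-670 and Knockdown-732. The labels do not say whether reads were counted by strand, and without strand the reads of this pair cannot be told apart.

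The bifunctional enzymes, which make and remove the sugar phosphate that activates phosphofructokinase, were higher for 2 of 3. PFKFB3, the form with strong kinase activity in tumour cells, gave 462 and 475 CPM in the controls and 779 and 730.3 CPM in the knockdown libraries, a log2 fold change of 0.69 (SE 0.07, adjusted p = 1.67e-07 in edgeR). PFKFB4, another hypoxia-responsive form, gave 23.4 and 22.7 CPM against 53.0 and 59.9 CPM, a change of 1.29 (SE 0.10, adjusted p = 8.18e-09 in edgeR), and it was the highest in Knockdown-732. PFKFB2, the heart-type form, gave 25.4 and 30.0 CPM against 30.3 and 31.75 CPM. Its knockdown libraries lay just above the controls and it was not called, at 0.16 (SE 0.11, adjusted p = 0.262 in edgeR).

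**Figure D2:**
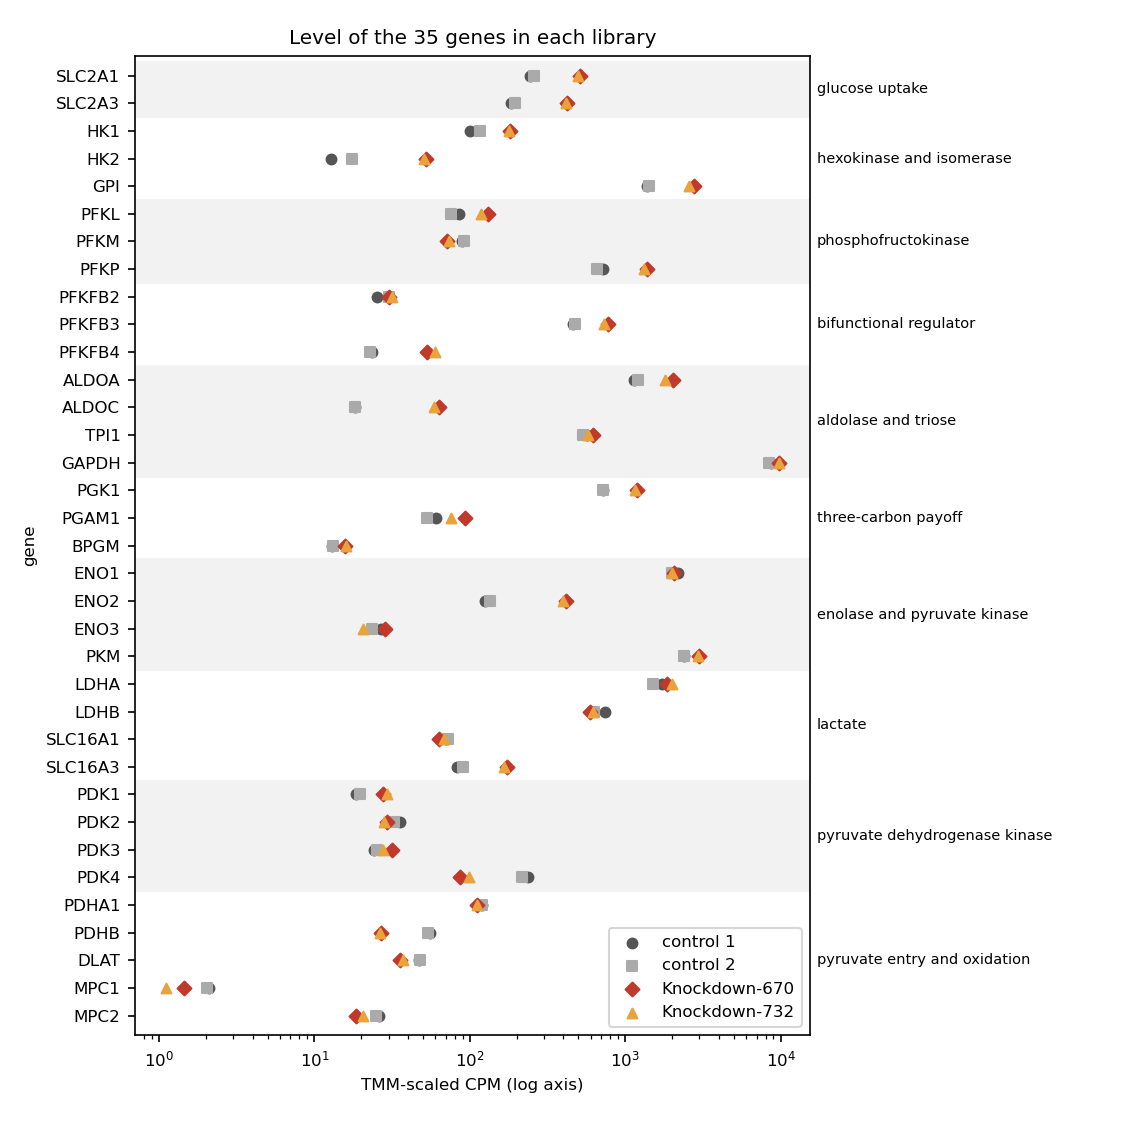
Level of each of the 35 genes (y axis, in pathway order) as TMM-scaled CPM on a log axis, with 1 symbol for each of the 4 libraries. The 2 knockdown symbols lie together to the right of the controls for SLC2A1 (508.5 and 498 against 244.5 and 258 CPM), HK2 and ENO2, overlap the controls for ENO1, and lie to the left for PDK4.

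In the splitting of fructose bisphosphate the minor aldolase changed most. ALDOA, the main aldolase, gave 1146 and 1212 CPM in the controls and 2038 and 1813 CPM in the knockdown libraries, a log2 fold change of 0.71 (SE 0.07, adjusted p = 3.31e-07 in edgeR). It shares 42.3% of its exon bases on the same strand with AC093512.2, which is not among the symbols counted. ALDOC, a form best known from brain, gave 18.25 and 18.4 CPM against 63.8 and 58.5 CPM, a change of 1.74 (SE 0.10, adjusted p = 1.45e-10 in edgeR). Control libraries agreed closely for ALDOC, and both knockdown libraries stood more than 3-fold above them. TPI1, which interconverts the triose phosphates, was not called, with 570.3 and 538 CPM against 619 and 576 CPM and a change of 0.11 (SE 0.07, adjusted p = 0.215 in edgeR). Its pseudogenes, mainly TPI1P1, held 32.3% to 35.3% of the counts of TPI1 and its copies together, so a large share of its reads may have been placed elsewhere. With the copies added, the change of TPI1 was 0.07. GAPDH, which oxidises triose phosphate and is often used as a reference gene, gave 8736 and 8466 CPM against 9779 and 9814 CPM. It was called higher at 0.19 (SE 0.07, adjusted p = 0.0359 in edgeR), but the call was kept in 5 of 11 alternative settings and was lost on leaving out any 1 of the 4 libraries (0.16 to 0.21).

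The transcript for the ATP-yielding step that follows was higher. PGK1, phosphoglycerate kinase, gave 722 and 718 CPM in the controls and 1187 and 1164 CPM in the knockdown libraries. Its log2 fold change was 0.71 (SE 0.07, adjusted p = 8.85e-08 in edgeR), and the members of each pair of libraries were close to each other. PGAM1, phosphoglycerate mutase, gave 60.3 and 53.3 CPM against 93.5 and 75.25 CPM, a change of 0.57 (SE 0.10, adjusted p = 0.000291 in edgeR), with Knockdown-670 above Knockdown-732. Its near-identical copy PGAM4 had 101, 81, 175 and 315 counts in control 1, control 2, Knockdown-670 and Knockdown-732, the highest in the library where PGAM1 was the lower of the knockdown pair. With all copies added, the change of PGAM1 was 0.70. BPGM, which diverts an intermediate to bisphosphoglycerate, gave 12.99 and 13.2 CPM against 15.6 and 15.9 CPM and was not called, at 0.27 (SE 0.14, adjusted p = 0.122 in edgeR).

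Among the enolases 1 of 3 was called, with a large rise. ENO2, the form known as neuron-specific enolase, gave 124.5 and 135 CPM in the controls and 417 and 397 CPM in the knockdown libraries. Its log2 fold change of 1.65 (SE 0.07, adjusted p = 2.85e-12 in edgeR) had the smallest adjusted p of the 35 genes. ENO1, the ubiquitous enolase and by far the most abundant per length, gave 2173 and 1986 CPM against 2071 and 2014 CPM; the groups overlapped and the change was -0.03 (SE 0.07, adjusted p = 0.79 in edgeR). ENO3, the muscle form, gave 26.8 and 23.5 CPM against 28.5 and 20.4 CPM, with Knockdown-670 the highest and Knockdown-732 the lowest of the 4 libraries, and was not called at -0.04 (SE 0.15, adjusted p = 0.833 in edgeR). Of the exon bases of ENO3, 2.59% lie opposite PFN1, which had 3293 and 3830 counts in the controls, 3735 in Knockdown-670 and 3155 in Knockdown-732. The sequences of ENO2 and ENO1 are those printed above. Defining markers of neurons and neuroendocrine cells did not rise with ENO2 and ALDOC as a list: their sum went from 193 and 192.5 CPM (scaled by library size) to 186 and 185 CPM. Among these markers STMN2, ELAVL4 and INSM1 had 1 count each over all libraries, RBFOX3 was higher and SNAP25 was lower. Of 10 striated muscle markers, read because ENO3 and PFKM are muscle forms, 9 had under 10 counts in every library and 4 had none. PKM, the pyruvate kinase that ends glycolysis, gave 2395 and 2381 CPM against 2992 and 2927 CPM, a change of 0.31 (SE 0.07, adjusted p = 0.00102 in edgeR) without overlap.

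Lactate genes were higher for 2 of 4, with a large change only in the exporter SLC16A3. LDHA, the subunit that favours reduction of pyruvate to lactate, gave 1719 and 1518 CPM in the controls and 1851 and 2015 CPM in the knockdown libraries. It was called higher at 0.26 (SE 0.08, adjusted p = 0.0098 in edgeR). The gap between the higher control and the lower knockdown library was smaller than the gap between the controls, and the call was lost without control 2 (0.16) and without Knockdown-732 (0.18). LDHB, the subunit that favours the reverse reaction, gave 741 and 632 CPM against 589.8 and 620.3 CPM. It lay lower in both knockdown libraries and was not called, at -0.18 (SE 0.08, adjusted p = 0.0613 in edgeR). It passed in 4 of 11 alternative settings, among them without control 2 (-0.30) and without Knockdown-732 (-0.23), and its sign turned to 0.03 with the GC and length adjustment. SLC16A3, the lactate exporter MCT4 of glycolytic cells, gave 82.5 and 89.9 CPM against 172 and 167 CPM, a change of 0.98 (SE 0.07, adjusted p = 4.85e-09 in edgeR). Of the exon bases of SLC16A3, 5.36% lie opposite CSNK1D, which had 2866 and 2954 counts in the controls, 3243 in Knockdown-670 and 3584 in Knockdown-732. LDHB shares 33.4% of its exon bases on the same strand with AC010197.2, which is not among the symbols counted. SLC16A1, the bidirectional transporter MCT1, gave 70.3 and 71.9 CPM against 63.3 and 67.8 CPM and was not called, at -0.12 (SE 0.08, adjusted p = 0.253 in edgeR).

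The 4 pyruvate dehydrogenase kinases, which phosphorylate and switch off the complex, moved in different directions. PDK4, the form induced by fasting and fatty acids, gave 235 and 216 CPM in the controls and 87.0 and 98.7 CPM in the knockdown libraries, the largest fall of the 35 genes at -1.28 (SE 0.08, adjusted p = 2.81e-10 in edgeR). PDK1, the form induced by hypoxia, gave 18.6 and 19.7 CPM against 27.5 and 29.3 CPM, a rise of 0.57 (SE 0.12, adjusted p = 0.000741 in edgeR). PDK2 gave 35.6 and 32.7 CPM against 29.1 and 28.1 CPM. PDK3 gave 24.3 and 25.2 CPM against 31.6 and 27.8 CPM. Neither passed the test, with changes of -0.25 for PDK2 (adjusted p = 0.0589) and 0.26 for PDK3 (adjusted p = 0.072); PDK3 passed at 0.34 without Knockdown-732, and PDK2 passed with library size as the only scaling. Of the exon bases of PDK2, 38.6% lie opposite SAMD14, which had 20 to 32 counts per library.

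Genes that bring pyruvate into mitochondria and oxidise it were lower or not called. PDHB, the beta subunit of the first enzyme of the complex, gave 55.5 and 53.7 CPM in the controls and 26.75 and 26.55 CPM in the knockdown libraries, a log2 fold change of -1.03 (SE 0.09, adjusted p = 6.32e-08 in edgeR). PDHA1, the alpha subunit of the same enzyme and the one its kinases phosphorylate, gave 119.5 and 119 CPM against 110.5 and 111 CPM, and 21.3% of its exon bases lie opposite MAP3K15. The groups did not overlap for PDHA1, but the change of -0.11 was not called (SE 0.07, edgeR adjusted p = 0.213). DLAT, the second enzyme of the complex, gave 46.85 and 47.7 CPM against 35.6 and 36.95 CPM, a change of -0.38 (SE 0.09, adjusted p = 0.00228 in edgeR). MPC2, a subunit of the mitochondrial pyruvate carrier, gave 25.9 and 24.9 CPM against 18.6 and 20.5 CPM, a change of -0.38 (SE 0.12, adjusted p = 0.0165 in edgeR). The call of MPC2 was lost without control 1 (-0.36), without Knockdown-670 (-0.31) and in DESeq2, and 22.5% of its exon bases lie opposite DCAF6. In control 1, control 2, Knockdown-670 and Knockdown-732, DCAF6 had 633, 607, 544 and 684 counts, and MPC2 had 335, 330, 219 and 260. MPC1, the partner subunit of MPC2, had only 27 counts in each control, against 17 in Knockdown-670 and 14 in Knockdown-732. Its change of -0.70 carried an SE of 0.36 and was not called (edgeR adjusted p = 0.127), the largest SE of the 35 genes.

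**Figure D3:**
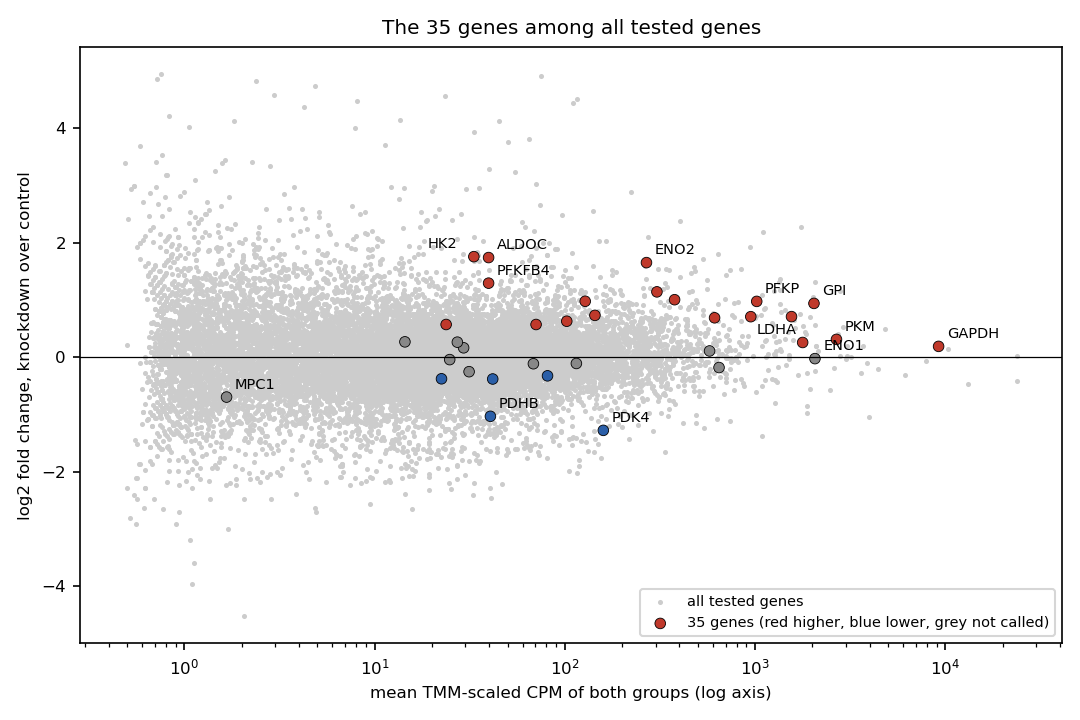
Log2 fold change (knockdown over control, y axis) against mean level (TMM-scaled CPM of both groups, log x axis) for all 16120 tested genes in grey and the 35 genes in colour (red higher, blue lower, grey not called). Red points occur along most of the x axis, from PDK1 and HK2 to GAPDH, and MPC1 is the member of lowest level.

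Within several steps the ratio of 2 isoenzymes separated the groups. Ratios of 12 pairs were compared in each library (log2 of the CPM ratio with a prior count of 2), which does not depend on how libraries are scaled. For ENO2 over ENO1 the log2 ratio went from -4.12 and -3.88 to -2.31 and -2.34, a difference of 1.68. The ratio of SLC16A3 to SLC16A1 went from 0.23 and 0.32 to 1.44 and 1.30, a difference of 1.09. HK2 over HK1 went from -2.96 and -2.71 to -1.80 and -1.80, a difference of 1.03. ALDOC over ALDOA differed by a similar amount, 1.02, with -5.96 and -6.03 in the controls against -5.00 and -4.95. In the other direction, PFKM over PFKL went from 0.06 and 0.28 to -0.88 and -0.69, a difference of -0.95. Smaller differences were 0.60 for PFKFB4 over PFKFB3, 0.44 for LDHA over LDHB, 0.35 for PFKP over PFKL, 0.27 for MPC2 over MPC1 and 0.14 for SLC2A3 over SLC2A1, with -0.31 for PDK3 over PDK1. A single library carried 2 of these: without Knockdown-732 the difference was 0.02 for MPC2 over MPC1 and -0.17 for PDK3 over PDK1, and without Knockdown-670 it was 0.51 for MPC2 over MPC1. Groups did not overlap in 11 of the 12 pairs, and ENO3 over ENO1 (-0.03) overlapped. Among single genes, both knockdown libraries lay above both controls in 36.4% of all tested genes and below in 36.2%. The share for ratios of other gene pairs was not counted. With 2 libraries against 2, an exact permutation test cannot go below p = 0.333 (two-sided), which each of the 11 reached (0.364 after Benjamini-Hochberg adjustment over 12), so no ratio could pass a threshold of 0.05 in this test.

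**Figure D4:**
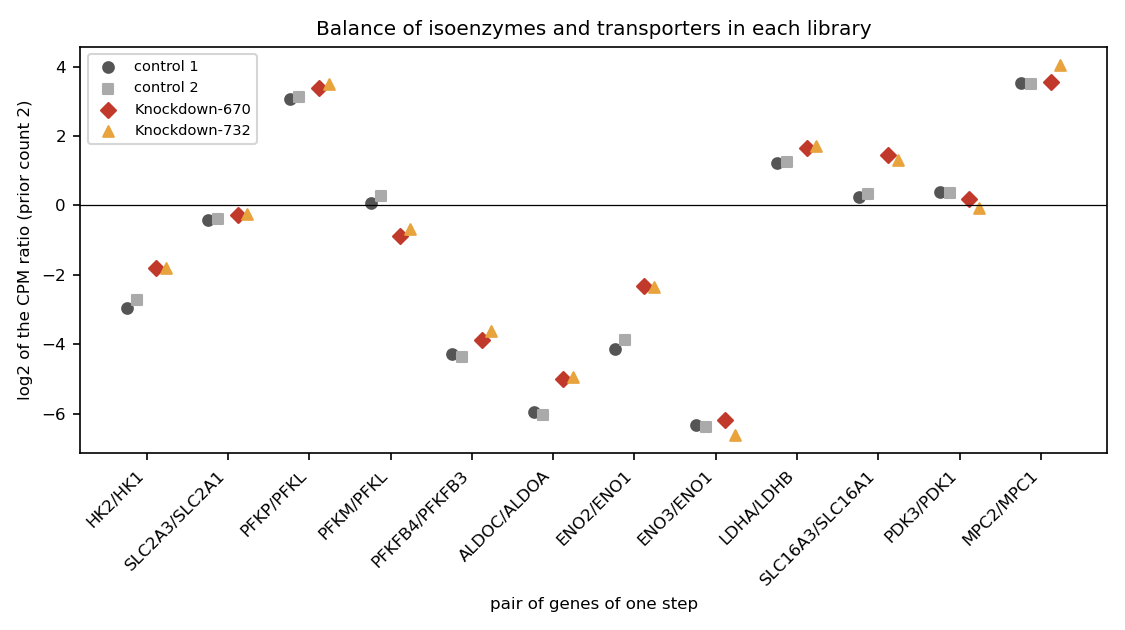
Log2 of the CPM ratio (y axis, prior count of 2) for 12 pairs of genes of the same step (x axis), with 1 symbol for each of the 4 libraries. The knockdown symbols stand above the controls for ENO2 over ENO1 (-2.31 and -2.34 against -4.12 and -3.88), below them for PFKM over PFKL, and on both sides of them for ENO3 over ENO1.

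Per kilobase of transcript (median length of the annotated coding transcripts), GAPDH was the most abundant of the 35 genes in the controls at 6830 and 6619 CPM per kb. ENO1 followed with 1219 and 1115, PKM with 1042 and 1036 and LDHA with 941 and 831 CPM per kb. HK2 with 2.32 and 3.17 and MPC1 with 2.14 and 2.09 CPM per kb were the lowest. On this scale HK2 made up 8.16% and 9.55% of HK1 and HK2 together in the controls and 16.6% in each knockdown library. With HKDC1 added, the share of HK2 was 2.84% and 3.48% against 8.21% and 8.05%, and HKDC1 led the 3 with 65.2% and 63.6% against 50.6% and 51.6%. ENO2 went from 3.99% and 4.69% of ENO1, ENO2 and ENO3 to 12.7% and 12.5%, and ALDOC from 1.41% and 1.35% of the aldolases ALDOA and ALDOC to 2.74% and 2.82%. PFKP went from 75.6% and 75.2% of the phosphofructokinases to 82.4% and 82.9%, and PFKM from 8.67% and 9.70% to 3.94% and 4.22%. Among the forms compared, ENO1, ALDOA and PFKP led in every library. PDK4 went from 66.3% and 64.5% of the pyruvate dehydrogenase kinases to 39.2% and 43.4%. With the longest transcript as the length instead of the median, HKDC1, ENO1, ALDOA, PFKP and PDK4 still led the forms compared in every library.

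Either knockdown library alone gave nearly the same calls against the controls. These comparisons share both control libraries, and their spread comes from the control pair only. In Knockdown-670, 18 members were higher and 6 lower, against 21.6% and 20.4% of all tested genes. In Knockdown-732, 18 were higher and 4 lower, against 20.6% and 19.6%. GAPDH was called in neither. LDHA was not called in Knockdown-670 (0.19, edgeR adjusted p = 0.0761) and was called in Knockdown-732 (0.32, edgeR adjusted p = 0.00226). MPC2 was called in Knockdown-670 (-0.45, edgeR adjusted p = 0.0205) and not in Knockdown-732 (-0.31, edgeR adjusted p = 0.12), and PDK3 and LDHB likewise passed in Knockdown-670 only. The difference between the knockdown libraries was tested directly, and 0 members were called in edgeR, where 0.143% of all genes were higher in Knockdown-732 and 0.261% lower. That test set 1 library against 1. The members of smallest p in it were ENO3 (-0.48) and PGAM1 (-0.31), neither of them called.

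Genes around the pathway were read from lists drawn up by function, with earlier results of these data known, so they are not independent evidence. Among all tested genes, 23.5% were called higher and 22.8% lower. Of 16 tested other isoenzymes and sugar transporters, 7 were higher, 1 lower and 8 not called (median 0.29). The sugar transporter SLC2A6 rose by 0.66 (adjusted p = 3.25e-05) and BSG, the chaperone of the lactate transporters, by 0.30 (adjusted p = 0.0025), while SLC2A14 (1.39, adjusted p = 6.22e-05) and PGAM4 (1.51, adjusted p = 0.00108) are the copies described above. Of 24 hypoxia targets outside glycolysis 22 were higher, none was lower and 2 were not called (median 0.72). ANGPTL4, a lipase inhibitor, rose by 2.10 (adjusted p = 2.19e-13), NDRG1, a stress-responsive protein, by 1.92 (adjusted p = 1.1e-12), CA9, a carbonic anhydrase of hypoxic tumours, by 1.53 (adjusted p = 5.77e-11), and P4HA2, a collagen hydroxylase, by 1.25 (adjusted p = 2.87e-10). Their median was above the members' median of 0.27, a description with no test between the lists.

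Regulators of the pathway divided. Of 29 tested genes for transcription and oxygen-sensing control 13 were higher, 6 lower and 10 not called (median 0.09). HIF1A, the oxygen-regulated subunit of the hypoxia-inducible factor, fell from a mean of 574 to 260.0 CPM, -1.14 (adjusted p = 1.94e-10), while EPAS1, its relative, rose from 401.5 to 667 CPM, 0.73 (adjusted p = 5.78e-08). EGLN3, an oxygen-sensing hydroxylase that is itself hypoxia-induced, rose from 60.0 to 156 CPM, 1.38 (adjusted p = 2.98e-10), and MXI1, an antagonist of MYC, rose by 0.68 (adjusted p = 1.96e-06). MYC itself (0.38, adjusted p = 0.000128 in edgeR) and MAX (0.57, adjusted p = 7.05e-05 in edgeR), named after their values were seen, were also higher. Transcript levels do not give the amount of the hypoxia-inducible factor proteins, which are known to be controlled by degradation.

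Beyond pyruvate and at the branches of the pathway, the lists leaned the other way or were mixed. Of 14 tested genes for the rest of the pyruvate dehydrogenase complex and other fates of pyruvate, 4 were higher, 6 lower and 4 not called (median -0.01). The malic enzymes ME2 (-0.93, adjusted p = 1.4e-07) and ME1 (-0.47, adjusted p = 5.79e-05) and PCK2, mitochondrial phosphoenolpyruvate carboxykinase (-0.40, adjusted p = 0.000107), were lower, and PDP1, a phosphatase that reactivates the complex, was higher (0.49, adjusted p = 0.000808). Of 20 tricarboxylic acid cycle genes 2 were higher, 8 lower and 10 not called (median -0.08). Fumarase FH (-0.91, adjusted p = 3.31e-07), malate dehydrogenase MDH1 (-0.53, adjusted p = 6.82e-06) and the succinyl-CoA ligase subunits SUCLA2 (-0.79, adjusted p = 4.29e-05) and SUCLG1 (-0.54, adjusted p = 5.21e-05) were among the lower genes. Of 10 pentose phosphate genes 1 was higher, 4 lower and 5 not called (median -0.14); the fall of PRPS2 was -0.73 (adjusted p = 2.32e-06), of PGD -0.55 (adjusted p = 7.29e-06) and of PRPS1 -0.55 (adjusted p = 4.96e-05), and H6PD rose by 0.49 (adjusted p = 0.000146). Of 26 tested genes for gluconeogenesis, glycogen and branch points 10 were higher, 7 lower and 9 not called (median 0.04). The members of smallest p were all higher: GFPT2 of the hexosamine branch (0.93, adjusted p = 2.83e-09), glycogen synthase GYS1 (0.84, adjusted p = 5.39e-08), aldose reductase AKR1B1 (0.78, adjusted p = 3.01e-07) and PGM3 (0.59, adjusted p = 1.03e-05).

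**Figure D5:**
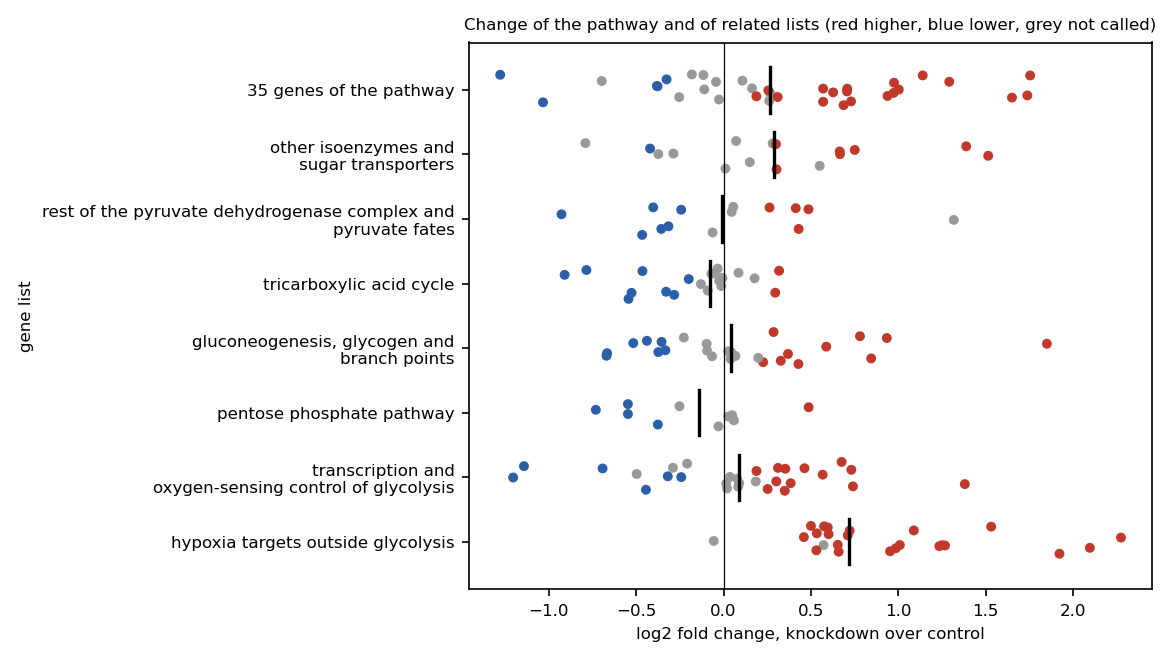
Log2 fold change (knockdown over control, x axis) of every tested gene of the 35-gene pathway and of 7 related lists (y axis), with 1 point per gene coloured by call and a black bar for the list's median. The pathway's median is 0.27, that of hypoxia targets outside glycolysis is the farthest right at 0.72, and that of the pentose phosphate pathway is the farthest left at -0.14.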

How the data were processed

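The authors deposited raw counts by gene symbol for the 4 libraries (12149767 to 12938143 counts) in a single table. Per the labels' protocols, RNA was extracted with Trizol and read on an Ion Proton. GRCh37 is the build in the submitters' processing notes. For the aligner, counting program, annotation and strand, the sources used here give nothing. The members and lists were chosen with earlier results of these data known, so neither is independent evidence. All 35 members are named. From each other list, up to 4 called genes of smallest p are named, with copies of members. HKDC1, MYC and MAX are named besides.

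Groups came from the sample titles. Replicates differed by more than sampling noise (chi-square per gene 3.72 for the controls and 3.42 for the knockdown pair). Counts were tested with edgeR 4.0.16 under R 4.3.3 (TMM scaling, filterByExpr, robust glmQLFit, glmQLFTest, Benjamini-Hochberg over 16120 genes); the coefficient of biological variation was 6.64%. SE was obtained as the absolute log2 fold change over the square root of F. A fit with 3 groups gave the single-library comparisons. Marker sums use library-size CPM. Transcript lengths came from GENCODE v29 (28572 symbols matched directly, 1234 through a synonym, 10399 not), and promoters from RefSeq by symbol. Scripts were tested on simulated data. Alternatives were DESeq2 1.42.0 and its size factors, limma-voom (limma 3.58.1), library size only, each library left out, no filter, a 5 CPM filter (2 libraries), a GC and length correction (91.1% of tested genes and all members annotated), and edgeR's glmTreat at 1.2-fold.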

Additional observations from a re-analysis of the deposited data

How the results depend on the processing

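Members higher numbered 16 to 19 over all settings tried. Members lower numbered 4 to 7, except 2 against a fold change of 1.2, where calls over all genes were not counted. The members' median log2 fold change (0.27) was 0.204 with library size only, 0.295 with the filter of 5 CPM, 0.433 with the GC and length correction, and 0.285 to 0.314 on leaving out each library in turn. Without a filter, Knockdown-670 gave 4293 called genes (6775 in the reported fit) and Knockdown-732 gave 3855 (6473). The difference between the knockdown libraries gave 17 genes with library size only and 0 without a filter (65); the 0 came from edgeR with more genes tested, and the cause was not tested. Over all genes, 5054 (DESeq2) to 7733 (no filter) were called between groups (7463), and library size only moved the share of higher calls from 50.7% to 43.2%. Changes of sign were seen for genes that were not called: ENO1 ranged from -0.0942 to 0.0353 and ENO3 from -0.304 to 0.17 on leaving out each library (0.0353 and 0.0501 without control 1, 0.17 without Knockdown-732), and LDHB was 0.027 with the GC and length correction. The cause of these shifts was not tested. No paired analysis was possible because the groups share no replicate numbers. With 2 libraries per group, replicate number limits every value, and genes with few counts, such as MPC1, have wide errors; MPC1 was not tested under the filter of 5 CPM.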
